A study of Rattus norvegicus with 12 samples.

Results

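The 9 genes described here build the MHC class II pathway of antigen presentation in the rat. They encode the chains of the RT1-B molecule (RT1-Ba and RT1-Bb), the chains of the RT1-D molecule (RT1-Da and RT1-Db1), the chains of the peptide editor DM (RT1-DMa and RT1-DMb), the invariant chain (Cd74), the transactivator Ciita and the protease cathepsin S (Ctss). Every probe set whose platform gene symbol was one of these names was taken, which gave 15 of 31042 probe sets, and 0 probe sets with several symbols included a member. Of the 15, 12 passed the filter on low values, a log2 value of at least 4 in at least 3 of 12 arrays, and entered the tests with 16536 probe sets in all. A second Ciita probe set (1369214_a_at) and the RT1-Ba probe sets 1381593_x_at and 1392334_at did not pass it.

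The study measured whole lungs of male Sprague-Dawley rats, an outbred stock, with 1 Affymetrix rat genome array per lung and 3 lungs in each of 4 groups. Rats with congestive heart failure (CHF) had a clip placed on the aorta above the coronary arteries as juveniles of 91 ± 9 g body weight, and their lungs were taken 9 weeks later. Sham rats had the operation without the clip. From day 1 after banding, rats of both kinds drank either ketotifen, a mast cell stabilizer, at 1 mg per kg per day, or placebo, so that the groups were CHF with ketotifen, CHF with placebo, sham with ketotifen and sham with placebo. The series text calls the CHF rats without ketotifen untreated, whereas the sample labels call them placebo. Whole lung holds many cell types, and in such bulk RNA fewer cells of a type and less RNA per cell cannot be told apart.

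Class II molecules are pairs of an alpha and a beta chain that show peptides of engulfed proteins to CD4 T cells. The invariant chain fills the binding groove during assembly, cathepsin S trims it, and DM exchanges the remaining fragment for peptides. Ciita is the coactivator that switches the class II genes on, working through factors bound at the X and Y boxes of their promoters, and interferon gamma induces it. In the lung, dendritic cells, macrophages and B cells carry class II, and alveolar type 2 cells are known to carry it as well. The class II genes of the rat lie in the RT1 complex, whose alleles differ strongly between animals, and this can change how well a probe matches.

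The promoters of the RT1 genes are shown because these genes share the Y box and are the ones whose signals were compared. RefSeq entries of the GRCr8 build were found for 7 of the 9 genes, namely all but RT1-DMb and Ciita, and each window of 300 bases ran from 250 bases before the gene's start to 50 after it. The Y box core ATTGG, on either strand, was in 7 of 7 windows, against 37.5% of 33465 windows in the table. The X box core AGNNAC with ATTGG 12 to 30 bases after it on the same strand was in 3 of 7 windows, against 3.57% of all. These were RT1-Bb, RT1-Da and RT1-Db1, where 27, 28 and 27 bases lay between the cores. The stretches lie at chr20:4576969-4577038 (plus strand, RT1-Ba), chr20:4604155-4604232 (minus strand, RT1-Bb), chr20:4515312-4515390 (plus strand, RT1-Da), chr20:4560218-4560295 (minus strand, RT1-Db1) and chr20:4712345-4712444 (minus strand, RT1-DMa). They are written 5′ to 3′ in the direction of the gene, and capitals mark the Y box core and, where the pair was found, the X box core.
RT1-Ba: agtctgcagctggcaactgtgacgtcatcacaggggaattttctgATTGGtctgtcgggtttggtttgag
RT1-Bb: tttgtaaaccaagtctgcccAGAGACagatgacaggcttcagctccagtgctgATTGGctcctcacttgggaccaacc
RT1-Da: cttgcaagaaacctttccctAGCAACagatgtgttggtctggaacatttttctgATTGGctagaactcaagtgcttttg
RT1-Db1: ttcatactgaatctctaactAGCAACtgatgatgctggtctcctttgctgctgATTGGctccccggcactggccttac
RT1-DMa: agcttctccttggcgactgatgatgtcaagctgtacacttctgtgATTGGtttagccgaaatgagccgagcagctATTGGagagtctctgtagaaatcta
The Cd74 and Ctss windows held ATTGG on the opposite strand only and are not shown. A match of letters is a description of the window and says nothing about binding in these lungs.

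Several features of the lungs bear on all the values that follow. The arrays of CHF ketotifen lungs 1 and 3 resembled each other more than any other 2 arrays did, with an SD of the difference over probe sets of 0.258, against 0.397 for the next pair. Cardiomyocyte markers averaged 5.62 and 8.70 on the log2 scale in sham ketotifen lungs 1 and 2 and 7.65 in sham placebo lung 3, whereas they lay between 2.50 and 2.80 in the other 9 lungs. The beta-actin signal was weaker at the 5′ end in 3 sham lungs, with a 3′ minus 5′ difference of 4.52 in sham ketotifen lung 2 and of 4.23 and 3.90 in sham placebo lungs 2 and 3, against 2.90 to 3.45 elsewhere. All values are log2 expression as deposited, errors of group means are SDs of 3 lungs, errors of differences are standard errors of the limma fit, and calls were made where limma's p, adjusted by Benjamini-Hochberg over every tested probe set, was under 0.05. The p-values measure the spread between these animals, and 3 arrays a group limit the precision.

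With ketotifen, CHF lungs were called higher than sham lungs for 8 of the 12 member probe sets and lower for 1. The largest rise was 15.7-fold, in the RT1-Db1 probe set 1370382_at, whose sham ketotifen values were low. The DM chains and cathepsin S rose by 2.86-fold to 3.5-fold, RT1-Da, RT1-Ba and the brighter RT1-Bb and RT1-Db1 probe sets rose by smaller amounts, and Cd74 and Ciita were not called. Over all probe sets, 6.36% were called higher and 6.61% lower in this comparison. The 1 lower call was the RT1-Bb probe set 1371065_at, which was above 4 in sham ketotifen lungs only, and the counts of signs and medians of members below are over the other 11. Their median difference was 1.10, against -0.03 over all probe sets, and 7 of 11 lay above sham in every lung, against 19.2% of all probe sets. With placebo the same surgical comparison called 0 of 12 members, where 0.169% of all probe sets were called, although 10 of 11 differences were above 0 with a median of 0.34 (0.02 over all probe sets). In that arm 5 members were higher at an unadjusted p under 0.05, against 10.5% of all probe sets, and 6 were higher without overlap of the groups, against 12.7%. Averaged over both drug arms, CHF lungs were called higher for 7 members and lower for 1, again 1371065_at, against 11% and 9.92% of all probe sets. Fewer members were called in ketotifen rats, and on average over both arms, without the sham lungs that stood apart. Calls over all probe sets fell as well, so the loss is not a result about the members. Leaving out the 3 lungs of weaker 5′ actin signal left 1 sham placebo lung. Leaving out the 3 lungs with cardiomyocyte signal left 1 sham ketotifen lung. The differences of RT1-DMb, RT1-DMa and Ctss with ketotifen were 1.85, 1.51 and 1.81 without the lungs with cardiomyocyte signal, about as large as with them. Of the 8 members called higher with ketotifen, RT1-Bb 1371033_at was the only one whose difference was smaller by over 1.5 times in either of these fits.

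The DM chains and cathepsin S, each read by a single probe set, differed between CHF and sham lungs by 1.52 to 1.81 with ketotifen and by 1.12 to 1.38 with placebo. RT1-DMb (1370882_at), its beta chain, had values of 10.61, 10.85 and 10.58 in CHF ketotifen lungs, 10.42, 9.63 and 9.56 in CHF placebo lungs, 8.86, 8.93 and 8.82 in sham ketotifen lungs and 9.19, 8.19 and 8.63 in sham placebo lungs. Every CHF lung lay above every sham lung, and every CHF ketotifen lung above every CHF placebo lung. The share of all probe sets that set every CHF lung apart from every sham lung was not counted, here or for the members below. In ketotifen rats the CHF lungs averaged 10.68 ± 0.15 and the sham lungs 8.87 ± 0.05, a difference of 1.81 ± 0.26, or 3.5-fold (limma, adjusted p = 0.0037). In placebo rats they averaged 9.87 ± 0.48 and 8.67 ± 0.50, a difference of 1.20 ± 0.26 with a 95% interval of 0.62 to 1.78 that was not called (limma, adjusted p = 0.0906). Averaged over both arms, RT1-DMb was 1.50 ± 0.19 higher in CHF (limma, adjusted p = 0.00201).

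RT1-DMa (1370904_at), the alpha chain of DM, had values of 9.29, 9.56 and 9.40 in CHF ketotifen lungs, 9.49, 8.21 and 7.92 in CHF placebo lungs, 7.97, 7.82 and 7.91 in sham ketotifen lungs and 7.74, 6.47 and 7.28 in sham placebo lungs. CHF placebo lung 1 sat among the CHF ketotifen lungs, and its group mates were near the sham ketotifen lungs, which they overlapped. CHF exceeded sham by 1.52 ± 0.38 with ketotifen (limma, adjusted p = 0.0293), a call that ended when any single CHF ketotifen or sham ketotifen lung was left out (limma, adjusted p between 0.066 and 0.0935). With placebo the difference was 1.38 ± 0.38 (limma, adjusted p = 0.119). The average over both arms was 1.45 ± 0.27 (limma, adjusted p = 0.0079).

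Cathepsin S (Ctss, 1387005_at), the protease that trims the invariant chain, had values of 11.81, 12.14 and 11.75 in CHF ketotifen lungs, 11.84, 10.75 and 11.19 in CHF placebo lungs, 10.17, 10.26 and 10.09 in sham ketotifen lungs and 10.72, 9.35 and 10.35 in sham placebo lungs. Every CHF lung lay above every sham lung, and CHF placebo lung 1 was again among the CHF ketotifen lungs. With ketotifen, CHF lungs averaged 11.90 ± 0.21 and sham lungs 10.18 ± 0.08, a difference of 1.73 ± 0.33, or 3.31-fold (limma, adjusted p = 0.0118). With placebo the difference was 1.12 ± 0.33 (limma, adjusted p = 0.127), and the average over both arms 1.42 ± 0.24 (limma, adjusted p = 0.00574). The placebo differences of these genes passed the test when sham placebo lung 1 was left out, and were then 1.46 for RT1-DMb (limma, adjusted p = 0.009), 1.66 for RT1-DMa (limma, adjusted p = 0.0306) and 1.41 for Ctss (limma, adjusted p = 0.0283). That lung was the highest of its group for each of these genes, so leaving it out had to widen these differences. Without the 3 sham lungs of weaker 5′ actin signal, which leaves sham placebo lung 1 alone in its group, they were 0.68, 0.80 and 0.54, and 0 of 11 members reached an unadjusted p under 0.05.

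**Figure D1:**
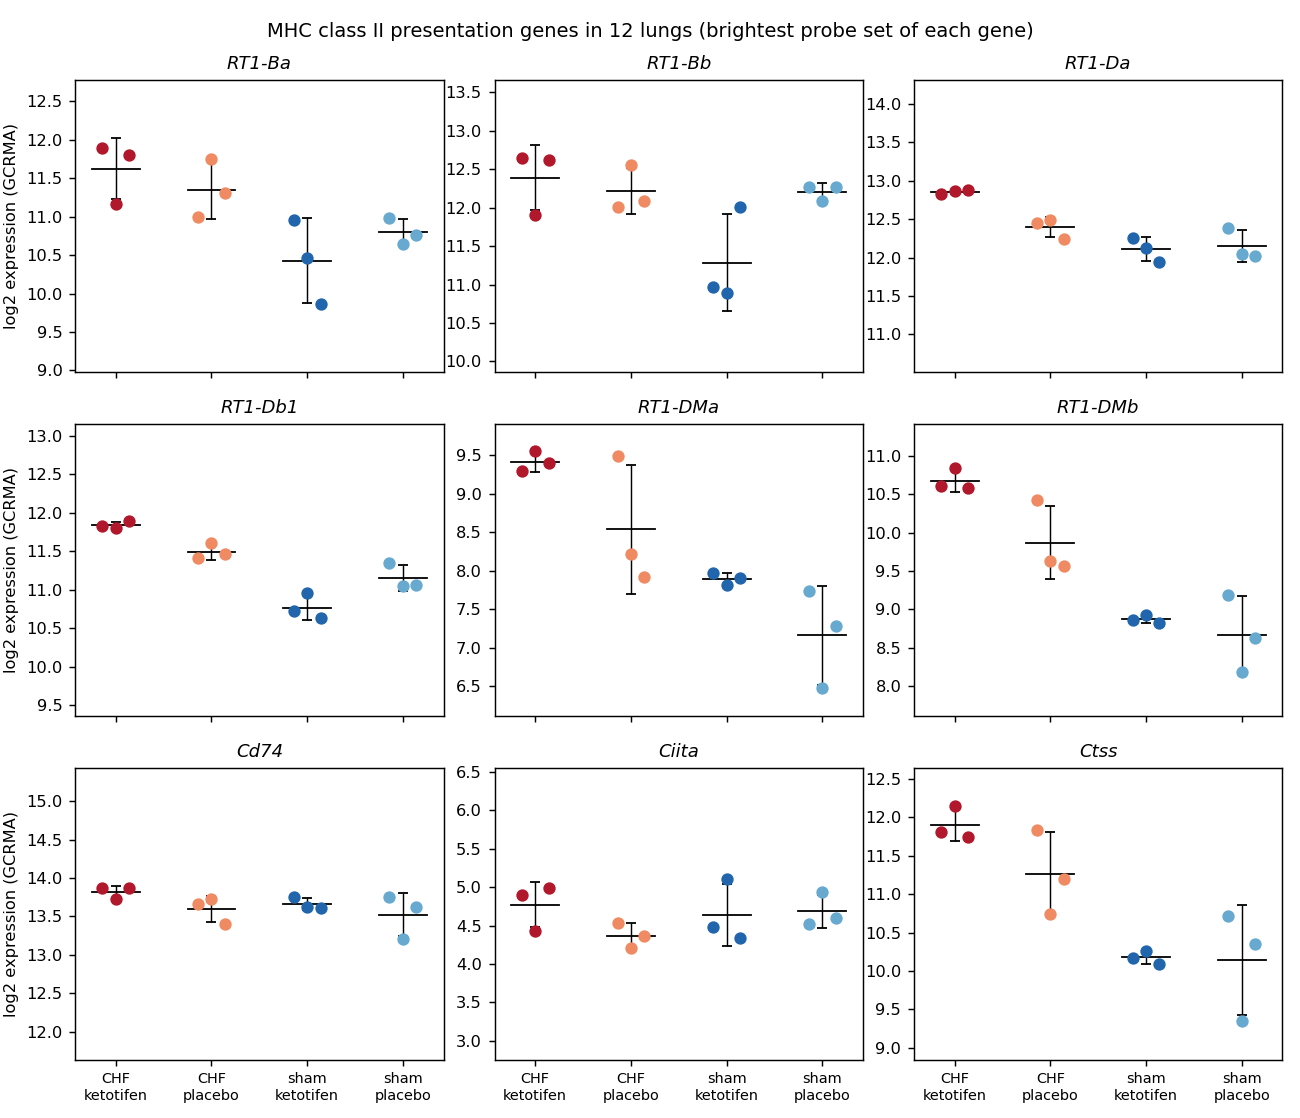
Each panel plots the log2 expression (vertical axis) of the brightest probe set of a member gene, with 1 point per lung, the group mean as a horizontal line and the SD of 3 lungs as a bar. RT1-DMb and Ctss lie higher in all 6 CHF lungs than in all 6 sham lungs, while Cd74 and Ciita overlap between all groups next to each other in order of their means.

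The RT1-D chains followed with smaller differences. RT1-Da (1370883_at), the alpha chain, had values of 12.83, 12.86 and 12.88 in CHF ketotifen lungs, 12.45, 12.49 and 12.25 in CHF placebo lungs, 12.26, 12.12 and 11.95 in sham ketotifen lungs and 12.39, 12.04 and 12.02 in sham placebo lungs. The CHF ketotifen lungs stood above all 9 others, and the other groups overlapped with the group next to them. CHF exceeded sham by 0.75 ± 0.13 with ketotifen (limma, adjusted p = 0.00693) and by 0.24 ± 0.13 with placebo (limma, adjusted p = 0.305), and by 0.50 ± 0.09 on average (limma, adjusted p = 0.00716).

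RT1-Db1, the beta chain of RT1-D, was measured by a probe set shared with other transcripts (1370383_s_at) and by a second one (1370382_at). The shared probe set read 11.82, 11.81 and 11.89 in CHF ketotifen lungs, 11.41, 11.60 and 11.46 in CHF placebo lungs, 10.72, 10.95 and 10.63 in sham ketotifen lungs and 11.35, 11.04 and 11.07 in sham placebo lungs. No group overlapped with the next one in this order of means, in which sham ketotifen was lowest. CHF exceeded sham by 1.07 ± 0.12 with ketotifen (limma, adjusted p = 0.00106), by 0.34 ± 0.12 with placebo (limma, adjusted p = 0.169) and by 0.71 ± 0.09 on average (limma, adjusted p = 0.00193).

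The second RT1-Db1 probe set, 1370382_at, read 10.31, 9.46 and 10.20 in CHF ketotifen lungs, 9.23, 10.05 and 9.58 in CHF placebo lungs, 5.95, 6.37 and 5.74 in sham ketotifen lungs and 8.85, 9.14 and 8.93 in sham placebo lungs. The 3 sham ketotifen lungs lay more than 2 log2 units below the other 9, in which CHF lungs exceeded sham placebo lungs without overlap. CHF exceeded sham by 3.97 ± 0.27 with ketotifen, or 15.7-fold (limma, adjusted p = 2.75e-05), and by 0.65 ± 0.27 with placebo (limma, adjusted p = 0.212). The size of the ketotifen difference therefore differed between the probe sets of this gene, 3.97 against 1.07, with the same sign.

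RT1-Ba, the alpha chain of RT1-B, had 4 probe sets, and the brightest (1370822_at) read 11.90, 11.17 and 11.81 in CHF ketotifen lungs, 10.99, 11.76 and 11.31 in CHF placebo lungs, 10.96, 10.47 and 9.86 in sham ketotifen lungs and 10.98, 10.65 and 10.76 in sham placebo lungs. All CHF lungs were above all sham lungs, by a margin as small as that of CHF placebo lung 1 over sham placebo lung 1. CHF exceeded sham by 1.20 ± 0.29 with ketotifen (limma, adjusted p = 0.0254), by 0.56 ± 0.29 with placebo (limma, adjusted p = 0.309) and by 0.88 ± 0.20 on average (limma, adjusted p = 0.0166). The ketotifen call ended without CHF ketotifen lung 1 or 3, or without sham ketotifen lung 2 or 3 (limma, adjusted p between 0.0597 and 0.0795).

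A second RT1-Ba probe set, 1377334_at, gave another order. It read 7.42, 9.14 and 8.52 in CHF ketotifen lungs, 8.31, 6.52 and 5.24 in CHF placebo lungs, 9.67, 9.47 and 9.15 in sham ketotifen lungs and 8.26, 3.62 and 8.02 in sham placebo lungs. The sham ketotifen lungs were the highest 3, and the other lungs spread widely within their groups. Its difference between CHF and sham with ketotifen was -1.07 ± 1.11 (limma, adjusted p = 0.54), opposite in sign to the brighter probe set. The probe sets 1381593_x_at and 1392334_at stayed below 4 in all 12 lungs, with highest values of 2.58 and 1.86.

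RT1-Bb, the beta chain of RT1-B, was read by 1371033_at at 12.64, 11.90 and 12.62 in CHF ketotifen lungs, 12.003, 12.56 and 12.09 in CHF placebo lungs, 10.96, 10.89 and 12.01 in sham ketotifen lungs and 12.27, 12.08 and 12.27 in sham placebo lungs. Sham ketotifen lungs 1 and 2 were about 1 log2 unit below the rest, and the other groups overlapped. CHF exceeded sham by 1.10 ± 0.30 with ketotifen (limma, adjusted p = 0.0352) and by 0.01 ± 0.30 with placebo (limma, adjusted p = 0.993). Without the 3 sham lungs that held cardiomyocyte signal, among them these 2, the ketotifen difference was 0.38 (limma, adjusted p = 0.589). The call also ended without CHF ketotifen lung 1 or 3, sham ketotifen lung 1 or 2, or sham placebo lung 3 (limma, adjusted p between 0.0532 and 0.103).

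The other RT1-Bb probe set, 1371065_at, read 3.19, 3.23 and 3.23 in CHF ketotifen lungs, 3.20, 3.14 and 3.13 in CHF placebo lungs, 9.35, 9.68 and 5.43 in sham ketotifen lungs and 3.14, 3.16 and 3.11 in sham placebo lungs. It was near background in 9 lungs and above 4 in the 3 sham ketotifen lungs only, so that it passed the filter through that group and its difference there is not support for any pattern. The fitted difference between CHF and sham with ketotifen was -4.94 ± 0.84 (limma, adjusted p = 0.00691), the only lower call among the members, and its size is uncertain because one side is background. Sham ketotifen lungs 1 and 2, with cardiomyocyte signal at 5.62 and 8.70, read 9.35 and 9.68 for this probe set. Sham ketotifen lung 3, at 2.63 for those markers, read 5.43, and sham placebo lung 3, at 7.65, read 3.11. Whether the cardiomyocyte signal bears on this probe set was not tested.

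**Figure D2:**
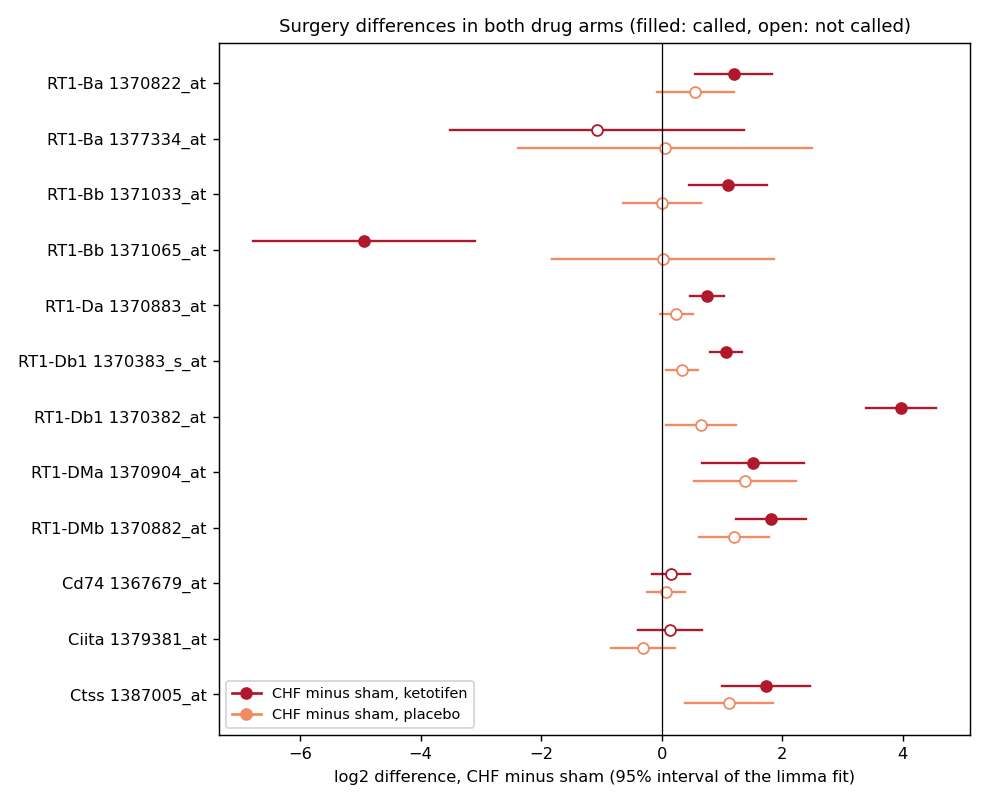
Log2 difference of CHF minus sham (horizontal axis) with its 95% interval for the 12 member probe sets tested, in ketotifen rats and in placebo rats. Filled points passed the test, and with ketotifen 8 lay above 0 and 1, the RT1-Bb probe set 1371065_at at -4.94, below it.

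The brighter RT1-Bb probe set was lowest in sham ketotifen lungs 1 and 2, at 10.96 and 10.89, and read 12.01 in sham ketotifen lung 3. The dimmer RT1-Bb probe set was near background in 9 lungs and passed the filter through the sham ketotifen lungs. No difference between these probe sets is given for that reason.

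For RT1-Db1 the signal of the brighter probe set minus that of the dimmer one in the same lung averaged 1.85 ± 0.44 in CHF ketotifen lungs, 1.87 ± 0.31 in CHF placebo lungs, 4.75 ± 0.15 in sham ketotifen lungs and 2.18 ± 0.30 in sham placebo lungs. It was larger in each sham ketotifen lung, at 4.77, 4.58 and 4.88, than in any other lung, where 2.50 was the highest. For RT1-Ba it averaged 3.27 ± 1.22 in CHF ketotifen lungs, 4.66 ± 1.77 in CHF placebo lungs, 1.00 ± 0.29 in sham ketotifen lungs and 4.16 ± 2.48 in sham placebo lungs. The sham ketotifen lungs were lowest here, and lungs of the other groups ranged up to 7.03, in sham placebo lung 2, where the dimmer probe set was below 4.

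**Figure D3:**
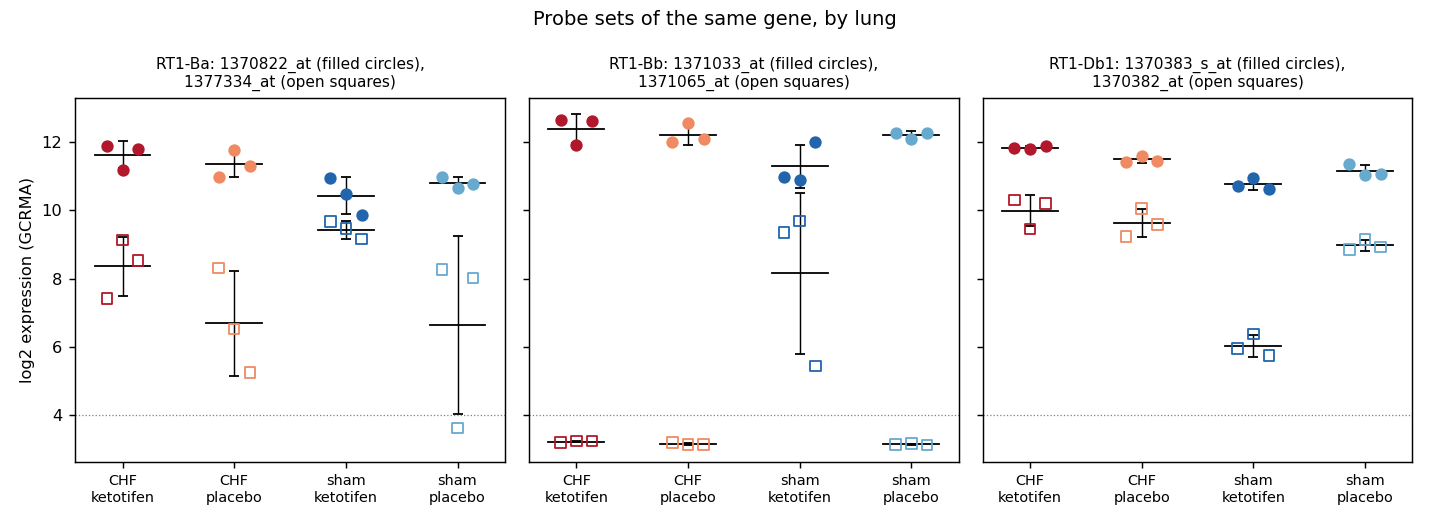
Log2 expression (vertical axis) of 2 probe sets each of RT1-Ba, RT1-Bb and RT1-Db1 by lung, with filled circles for the brighter and open squares for the dimmer probe set, lines at group means, bars of 1 SD and a dotted line at the filter value of 4. In sham ketotifen lungs the open squares of RT1-Bb lie at 5.43 to 9.68, against about 3 elsewhere, and those of RT1-Db1 at 5.74 to 6.37, against 8.85 or more.

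Groups could also be set against all 9 other lungs at once. Sham ketotifen lungs stood apart, above or below all others, in 307 of 16536 probe sets (1.86%), among them RT1-Ba 1377334_at, both RT1-Db1 probe sets and RT1-Bb 1371065_at, which passed the filter through these lungs. CHF ketotifen lungs stood apart in 2142 probe sets (13.0%), among them RT1-Da, RT1-DMb and the shared RT1-Db1 probe set. Sham placebo lungs stood apart in 1058 probe sets (6.40%), RT1-DMa among them, in which they were lowest. Whether the sham ketotifen rats carried other RT1 alleles was not tested, and no genotype was used here.

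The invariant chain and the transactivator differed little. Cd74 (1367679_at) read 13.87, 13.72 and 13.87 in CHF ketotifen lungs, 13.67, 13.72 and 13.40 in CHF placebo lungs, 13.75, 13.62 and 13.62 in sham ketotifen lungs and 13.75, 13.21 and 13.62 in sham placebo lungs. All 4 groups overlapped with their neighbours in order of means. CHF minus sham was 0.15 ± 0.14 with ketotifen (95% interval -0.16 to 0.47, limma, adjusted p = 0.487) and 0.07 ± 0.14 with placebo (95% interval -0.24 to 0.39, limma, adjusted p = 0.819).

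Ciita (1379381_at) was close to the filter value, at 4.89, 4.43 and 4.99 in CHF ketotifen lungs, 4.54, 4.21 and 4.36 in CHF placebo lungs, 4.48, 5.10 and 4.34 in sham ketotifen lungs and 4.52, 4.93 and 4.60 in sham placebo lungs. CHF minus sham was 0.13 ± 0.24 with ketotifen (95% interval -0.39 to 0.66) and -0.31 ± 0.24 with placebo (95% interval -0.84 to 0.21), neither called by limma (adjusted p = 0.735 and 0.487). The other Ciita probe set reached 4 in sham ketotifen lung 1 only, at 4.46. Signals this near background compress differences, so a moderate change of Ciita may not be detectable here.

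Ketotifen against placebo in CHF rats asked whether the mast cell stabilizer altered the failing lung. None of the 12 member probe sets was called by limma, where 1.22% of all probe sets were, and 4 were higher at an unadjusted p under 0.05, against 6.63% of all. All 11 differences, 1371065_at left aside, were above 0, with a median of 0.40 against -0.04 over all probe sets, and 3 members were higher without overlap, against 9.86% of all. These were RT1-Da at 0.46 ± 0.13 (limma, adjusted p = 0.104), the shared RT1-Db1 probe set at 0.35 ± 0.12 (limma, adjusted p = 0.179) and RT1-DMb at 0.81 ± 0.26 (limma, adjusted p = 0.156). RT1-DMa differed by 0.88 ± 0.38 (limma, adjusted p = 0.275) and Ctss by 0.64 ± 0.33 (limma, adjusted p = 0.348). Without CHF placebo lung 1, the lung that sat with the ketotifen lungs, RT1-DMa was called at 1.35 (limma, adjusted p = 0.0264) and RT1-DMb at 1.08 (limma, adjusted p = 0.026). That lung was singled out by its RT1-DMa value and was the highest CHF placebo lung for both genes. Leaving it out had to widen these differences, so the calls are not support for a drug difference. Each gene was called in 2 of 23 alternatives, with limma's adjusted p as high as 0.684 for RT1-DMa and 0.476 for RT1-DMb.

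Ketotifen against placebo in sham rats called 1 member, which was lower, where 0.0423% of all probe sets were called lower. It was the RT1-Db1 probe set 1370382_at, at -2.95 ± 0.27 (limma, adjusted p = 0.00221), while the shared RT1-Db1 probe set differed by -0.38 ± 0.12 (limma, adjusted p = 0.252). The call ended without the 3 lungs of weaker 5′ actin signal, at -3.00 (limma, adjusted p = 0.44), and without the 3 lungs with cardiomyocyte signal, at -3.25 (limma, adjusted p = 0.611). The RT1-Bb probe set 1371033_at differed by -0.92 ± 0.30 (limma, adjusted p = 0.257), and for 1371065_at, near background in all sham placebo lungs, no size is given (limma, adjusted p = 0.0618). RT1-DMa was higher in each sham ketotifen lung than in any sham placebo lung, by 0.74 ± 0.38 on average, and was not called (limma, adjusted p = 0.419). RT1-DMb differed by 0.20 ± 0.26, Ctss by 0.04 ± 0.33, Cd74 by 0.14 ± 0.14 and RT1-Da by -0.04 ± 0.13, and none of these was called either. The RT1-Ba probe set 1377334_at was higher by 2.80 ± 1.11 without overlap and was not called (limma, adjusted p = 0.311). Of 11 members, 1371065_at left aside, 2 were higher without overlap, this probe set and RT1-DMa. Another 3 were lower without overlap, RT1-Bb 1371033_at and both RT1-Db1 probe sets. The share of all probe sets is not given for this comparison, so no result is read from these counts. Of 21 other probe sets with an RT1 symbol, limma called 0. At an unadjusted p under 0.05, 4 of them were higher, against 6.31% of all probe sets. Their differences were above 0 for 19, against 49.8% of all probe sets, with a median of 0.70 and a range of -0.20 to 4.38.

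The interaction, which asks whether the surgical difference was larger with ketotifen than with placebo, was called above 0 for 1 member, against 0.254% of all probe sets. The RT1-Db1 probe set 1370382_at gave 3.32 ± 0.38 (limma, adjusted p = 0.00285), with the low sham ketotifen values in it. Without the 3 lungs of weaker 5′ actin signal it was 3.37 (limma, adjusted p = 0.124), and without the 3 lungs with cardiomyocyte signal 3.62 (limma, adjusted p = 0.228). For RT1-DMb the interaction was 0.60 ± 0.37 (95% interval -0.22 to 1.42), for Ctss 0.61 ± 0.47 (-0.43 to 1.65), for RT1-DMa 0.14 ± 0.54 (-1.05 to 1.34) and for Cd74 0.08 ± 0.20 (-0.36 to 0.53). For the DM chains and Ctss a difference between the arms was thus not shown, although only the ketotifen arm passed the test. The comparisons share groups: the surgical comparison with ketotifen and the drug comparison in CHF rats use the same CHF ketotifen lungs, and the drug comparison in sham rats uses the same sham ketotifen lungs.

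Over the 12 lungs the DM chains and cathepsin S varied together. Of the 36 pairs of members, by brightest probe set, RT1-DMb and Ctss had a Pearson r of 0.98 (Spearman rho 0.93), RT1-DMa and RT1-DMb 0.96 (0.89) and RT1-DMa and Ctss 0.93 (0.83). After the group means were taken away, r was still 0.92, 0.96 and 0.86 for these pairs. The RT1-D chains correlated at 0.89 (0.86), with 0.65 within groups, while RT1-DMb and RT1-Bb correlated at 0.39 (0.28), with -0.21 within groups. Ciita had r between -0.12 and 0.11 with all 8 other members. These values describe lungs that share their group differences and carry no test.

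The mean of the brightest RT1-Ba, RT1-Bb, RT1-Da, RT1-Db1 and Cd74 probe sets was then compared with 9731 other genes over the 12 lungs. The gene most like it was C1s, a protease of the classical complement pathway, with a Pearson r of 0.94 (rho 0.87), 0.59 within groups and 0.89 without CHF ketotifen lungs 1 and 3, the 2 farthest from the median. C1s averaged 11.60 ± 0.40 in CHF ketotifen lungs, 11.13 ± 0.05 in CHF placebo lungs, 10.44 ± 0.07 in sham ketotifen lungs and 10.81 ± 0.11 in sham placebo lungs. C1r, its partner protease, had an r of 0.88 (0.78), with 0.47 within groups. Clec10a, a lectin of dendritic cells and macrophages, had an r of 0.87 (0.87), with 0.49 within groups. Rcn2, Wdr74, P2rx4, Pkp1, Sgk1, Enc1 and Atg7 completed the 10 highest, with r between 0.85 and 0.89. Within groups r was 0.62 for Rcn2 and 0.67 for Wdr74, above those of C1r and Clec10a. It was 0.43 for Sgk1, 0.48 for Enc1, 0.21 for P2rx4, 0.23 for Pkp1 and 0.05 for Atg7.

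Other genes of antigen processing were measured for 12 of 19 names listed. For this and the following lists, CHF against sham with ketotifen called 6.36% of all probe sets higher and 6.61% lower. On average over both arms these shares were 11% and 9.92%. With placebo 0.169% were called in either direction, and 10.5% were higher at an unadjusted p under 0.05. The drug comparison in CHF rats called 1.22%. Median surgical differences over all probe sets were -0.03 with ketotifen, 0.02 with placebo and -0.02 on average. With ketotifen, 6 of 12 were called higher in CHF than in sham lungs and 0 lower, with all 12 differences above 0 and a median of 0.59. The endosomal proteases cathepsin Z (Ctsz, 1.80 ± 0.38), cathepsin D (Ctsd, 1.47 ± 0.37), legumain (Lgmn, 1.28 ± 0.31) and cathepsin B (Ctsb, 0.71 ± 0.20) rose, as did the lysosomal thiol reductase Ifi30 (1.21 ± 0.29) and Marchf1 (1.38 ± 0.33), a ubiquitin ligase that removes class II from the surface. In the placebo arm 0 of 12 were called by limma, 6 were higher at an unadjusted p under 0.05, and 11 differences were above 0 with a median of 0.43. On average over both arms 7 of 12 rose, the same 6 and Mif, a ligand of the invariant chain (0.34 ± 0.10). Ketotifen against placebo called 0 of 12 in CHF rats and 0 of 12 in sham rats by limma, with 0 and 1 at an unadjusted p under 0.05.

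Of the genes that control class II transcription, 13 of 16 were measured. With ketotifen, 3 were lower in CHF than in sham lungs and 0 higher: the Y box factor subunit Nfya (-0.87 ± 0.16, limma, adjusted p = 0.00862), Creb1 (-1.37 ± 0.31, adjusted p = 0.0195) and the acetyltransferase Ep300 (-0.57 ± 0.13, adjusted p = 0.0219). In CHF rats Nfya was also lower with ketotifen than with placebo, by -0.81 ± 0.16 (limma, adjusted p = 0.0353). The X box factors Rfx5, Rfxap and Rfxank were not called in any of the 6 comparisons. In the placebo arm 0 of 13 were called by limma and 2 were lower at an unadjusted p under 0.05.

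Of the interferon gamma genes, 13 of 15 were listed on the array and 9 passed the filter. Ifng itself was below 4 in all 12 lungs, as were Il12b, Il10 and Socs1. With ketotifen, 3 of 9 rose in CHF against sham lungs, the interferon-induced chemokines Cxcl10 (3.27 ± 0.39, limma, adjusted p = 0.00131) and Cxcl9 (2.32 ± 0.51, adjusted p = 0.0176) and the receptor chain Ifngr2 (0.89 ± 0.20, adjusted p = 0.0187). Cxcl10 was also higher with ketotifen than with placebo in CHF rats, by 2.69 ± 0.39 (limma, adjusted p = 0.00693). The mean of Cxcl10 was below 4 in every group but CHF ketotifen, and that of Cxcl9 in the sham groups. The sizes of the differences of these chemokines are therefore uncertain. Irf1, a transcription factor between the receptor and Ciita, differed by -0.35 ± 0.23 with ketotifen and 0.02 ± 0.23 with placebo and was not called. In the placebo arm 0 of 9 were called by limma, 4 at an unadjusted p under 0.05.

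Of the genes for costimulation, which T cells need beside the class II signal, 3 of 6 measured passed the filter, and Cd80, Cd4 and Tnfsf4 stayed below 4 in all 12 lungs. Cd83, which stabilizes class II at the surface of dendritic cells, rose in CHF against sham lungs with ketotifen by 2.19 ± 0.42 (limma, adjusted p = 0.0117), and with ketotifen against placebo in CHF rats by 2.14 ± 0.42 (adjusted p = 0.0372). The costimulator Cd86 rose in CHF against sham lungs with ketotifen by 0.69 ± 0.20 (limma, adjusted p = 0.046). In the placebo arm 0 of 3 were called by limma and 1 was higher at an unadjusted p under 0.05.

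Markers of the cell types that carry class II did not all move in the same direction. The mean log2 level of 9 macrophage markers ranged from 7.86 to 8.54 in CHF ketotifen lungs, from 6.95 to 7.88 in CHF placebo lungs, from 6.40 to 6.59 in sham ketotifen lungs and from 5.61 to 6.94 in sham placebo lungs. All CHF lungs were above all sham lungs, and CHF placebo lung 1, which sat with the CHF ketotifen lungs for RT1-DMa and Ctss, had the 7.88. With ketotifen, 5 of 8 macrophage markers that passed the filter rose in CHF, among them C1qa (2.35 ± 0.34), Adgre1 (1.39 ± 0.29) and the mannose receptor Mrc1 (1.71 ± 0.48), and Itgam was below 4 in all 12 lungs. In the placebo arm 0 of 8 were called by limma, 5 were higher at an unadjusted p under 0.05, and the median was 1.18. The part of these cells in the class II differences was not tested.

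**Figure D4:**
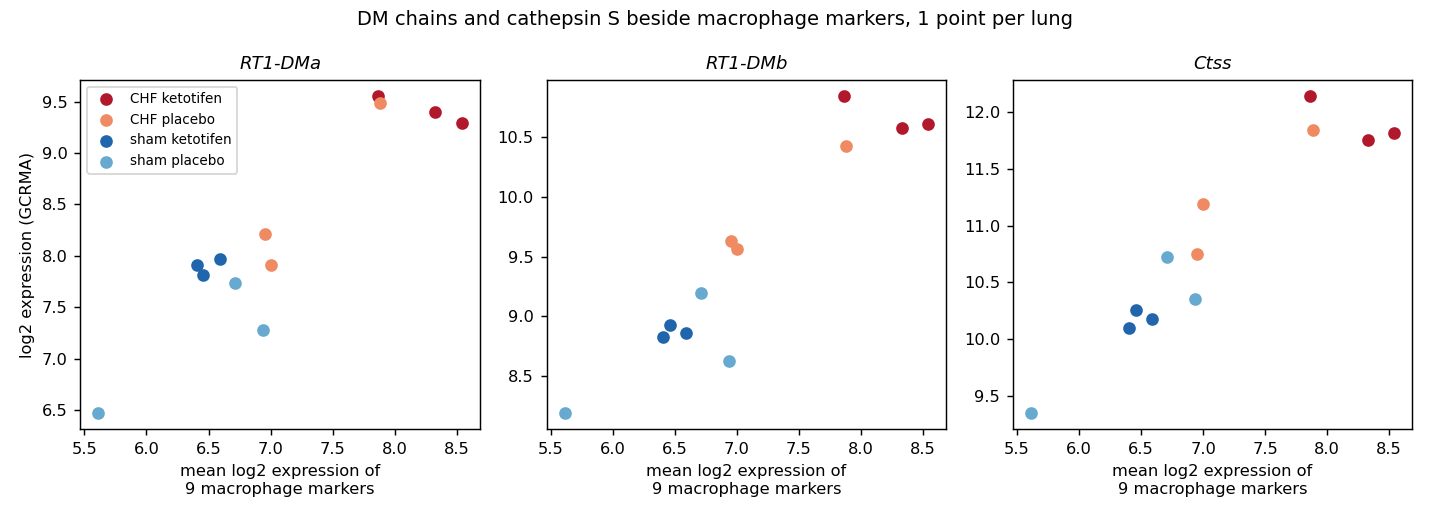
Log2 expression of RT1-DMa, RT1-DMb and Ctss (vertical axis) against the mean log2 level of 9 macrophage markers (horizontal axis), with 1 point per lung. The CHF ketotifen lungs and CHF placebo lung 1 lie at marker levels of 7.86 to 8.54 and are the highest 4 for RT1-DMa, and sham placebo lung 2 is lowest on both axes at 5.61.

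Dendritic cell markers, 8 in number, averaged 4.997 to 5.11 in CHF ketotifen lungs, 4.86 to 5.04 in CHF placebo lungs, 4.70 to 4.77 in sham ketotifen lungs and 4.49 to 4.67 in sham placebo lungs, with Flt3, Clec9a, Batf3 and Ccl22 below 4 in all 12 lungs. Itgax (1.96 ± 0.40) and Clec10a (1.42 ± 0.31) rose in CHF against sham lungs with ketotifen, and Ly75 fell by 0.80 ± 0.21. The 9 alveolar type 2 markers were above 4 in every lung, at 12.97 to 13.19 in CHF ketotifen lungs, 12.87 to 13.12 in CHF placebo lungs, 12.84 to 13.22 in sham ketotifen lungs and 12.30 to 13.01 in sham placebo lungs, which matches the tissue label. None of them was called in the surgical comparison of either drug arm, and on average over both arms 1 rose, the aspartic protease Napsa (0.58 ± 0.19, limma, adjusted p = 0.0494), with 3 higher at an unadjusted p under 0.05. The 8 B cell markers averaged 4.05 to 4.17 in CHF ketotifen lungs, 4.20 to 4.66 in CHF placebo lungs, 4.42 to 6.17 in sham ketotifen lungs and 3.98 to 4.90 in sham placebo lungs. Their highest level, 6.17, was in sham ketotifen lung 2. Of the 4 that passed the filter, Fcrla rose in CHF against sham lungs with placebo (2.93 ± 0.41, limma, adjusted p = 0.0241) and with ketotifen against placebo in sham rats (2.94 ± 0.41, adjusted p = 0.0276), whereas Bank1 fell in CHF against sham lungs with ketotifen (-3.37 ± 0.64, adjusted p = 0.0108). The 7 T cell markers averaged 3.92 to 4.28 in CHF ketotifen lungs, 4.003 to 4.55 in CHF placebo lungs, 4.13 to 5.29 in sham ketotifen lungs and 3.58 to 4.10 in sham placebo lungs, and limma called none of the 4 that passed the filter in any comparison.

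Markers of other lung cells differed between the groups as well. The 4 endothelial markers averaged 10.69 to 11.11 in CHF ketotifen lungs, 10.95 to 11.90 in CHF placebo lungs, 11.96 to 12.31 in sham ketotifen lungs and 11.97 to 12.10 in sham placebo lungs. With ketotifen 3 of 4 fell in CHF, the receptors Kdr (-1.75 ± 0.30) and Tek (-1.44 ± 0.35) and the tight junction protein Cldn5 (-1.31 ± 0.20). The 6 ciliated cell markers averaged 6.07 to 6.43 in CHF ketotifen lungs, 5.89 to 6.92 in CHF placebo lungs, 7.18 to 7.56 in sham ketotifen lungs and 6.70 to 10.07 in sham placebo lungs. On average over both arms 5 of 6 fell in CHF, with a median of -1.64 over the list, and 1 of 6 was called with ketotifen, Tppp3 (-1.23 ± 0.33). The 8 mast cell markers averaged 5.50 to 6.59 in CHF ketotifen lungs, 5.75 to 7.16 in CHF placebo lungs, 5.04 to 5.52 in sham ketotifen lungs and 3.83 to 4.68 in sham placebo lungs. With placebo 4 of the 7 that passed the filter rose in CHF, the proteases Cpa3 (4.04 ± 0.62), Mcpt10 (3.88 ± 0.47) and Cma1 (3.46 ± 0.48) and the IgE receptor chain Fcer1a (3.50 ± 0.36). The means of Cpa3, Cma1 and Fcer1a were below 4 in sham placebo lungs, so the sizes of their differences are uncertain. With ketotifen 2 of 7 rose, Cma1 (2.99 ± 0.48) and Fcer1a (1.21 ± 0.36). The part of any of these cell types in the class II differences was not tested.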

How the data were processed

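The authors deposited log2 expression per probe set. The submitters' processing notes name GCRMA and R 2.5.0 and no settings. GCRMA models background from the bases of each probe, and values near background are compressed. Scanner files, dates and batches were not used here. Groups came from the sample labels, with titles of the form Sham, CHF, Sham+Keto and CHF+Keto. The 57 control probe sets were left out, and gene symbols came from the platform annotation. limma 3.58.1 in R 4.3.3 was fitted to all 12 arrays with 4 group means and an intensity trend (8 residual degrees of freedom), two-sided, and p-values were adjusted by Benjamini-Hochberg over 16536 probe sets. The fit was tested on simulated data. Every member probe set is named. Lists take the brightest probe set of a gene and name the genes of smallest p, with a few further markers and uncalled genes chosen after their values were seen. The members, lists and alternatives were chosen with earlier results of these data known. The same-numbered arrays of different groups did not deviate together, so no pairing was used. The alternatives were other normalizations, filters and weights, and arrays left out.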

Additional observations from a re-analysis of the deposited data

Results flagged for a closer look

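The RT1-Db1 probe set 1370382_at differed in its surgical effect between the drug arms by a test of the difference itself, the interaction term, at 3.32 ± 0.38 (limma, adjusted p = 0.00285). CHF minus sham was 3.97 with ketotifen and 0.65 with placebo, and all 3 sham ketotifen lungs, at 5.95, 6.37 and 5.74, lay below the other 9. The shared RT1-Db1 probe set 1370383_s_at gave an interaction of 0.73 ± 0.17 in the same direction (limma, adjusted p = 0.135). With any single lung left out, the interaction of 1370382_at lay between 3.13 and 3.59 (limma, adjusted p between 0.00346 and 0.0261).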

How the results depend on the processing

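The 19 member differences called kept their sign in every alternative that gave them a value, between 16 and 23 alternatives each. Of these, 5 stayed called in all of their alternatives. Among the 5, 2 were of RT1-Bb 1371065_at, which fails the filter once any sham ketotifen lung is left out. It was thus never tested without one of those lungs, and its lasting calls are not support. Of 53 differences not called, 15 changed sign somewhere. Values near background, 1 whole-lung sample per animal and 3 arrays a group limit the precision, and the lungs that stand apart are all sham lungs, so leaving them out also leaves groups of 1 lung whose spread is taken from the other groups. The causes of the changes below were not tested, beyond the fewer samples or tests that some alternatives bring. Array weights were estimated gene by gene, since the default method did not converge.

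For all probe sets, the counts called were 28 for CHF against sham with placebo, 201 for the drug in CHF rats, 2145 for CHF against sham under ketotifen, 14 for the drug in sham rats, 61 for the interaction and 3467 for the average surgery effect. With CHF ketotifen arrays 1 and 3 averaged the first 5 were 16, 60, 878, 8 and 14. With array quality weights they were 3236, 4134, 4139, 702 and 1132, and 6069 for the average, and the members called were 6 in both the placebo surgery and the CHF drug comparison, 2 for the drug in sham rats and 3 for the interaction. Without a filter, CHF against sham gave 9 calls with placebo and 1156 with ketotifen, the interaction 36 and the average 2311. A filter at a log2 value of 6 gave 7 calls for the drug in sham rats. Fits of only the groups compared gave 0 for CHF against sham with placebo (limma, 2506 at an unadjusted p under 0.05), 60 for the drug in CHF rats and 2 for the drug in sham rats.

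Without the 3 lungs of weaker 5′ actin signal, limma called 0 for CHF against sham with placebo (901 unadjusted, 0 of 11 members), 1023 with ketotifen with 5 members, 0 for the drug in sham rats (585 unadjusted, 2 members), 2 for the interaction with 0 members (5 unadjusted) and 201 for the average with 3 members. Without the 3 lungs with cardiomyocyte signal, an alternative chosen after seeing the data, it called 0 for CHF against sham with placebo (2037 unadjusted, 3 members), 69 for the drug in CHF rats, 28 with 1 member for CHF against sham under ketotifen, 0 for the drug in sham rats (590 unadjusted, 3 members), 2 for the interaction with 0 members (4 unadjusted) and 58 for the average with 2 members.

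A replicate block for arrays of the same number gave 6 calls for the drug in sham rats and 37 for the interaction and left all 6 counts of members as they were. Same-numbered arrays of different groups correlated in their deviations from group means at -0.35 to 0.26 (median 0.05, 18 pairs), and differently numbered ones at -0.39 to 0.32 (median -0.03, 36 pairs), so the numbers were not taken to pair the animals.

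With each array left out in turn, calls ranged from 0 to 1491 for CHF against sham with placebo (0 to 3 members), from 59 to 1211 for the drug in CHF rats (0 to 2 members), from 708 to 2759 for CHF against sham under ketotifen (5 to 9 members), from 3 to 699 for the drug in sham rats (1 to 2 members), from 13 to 303 for the interaction (1 member) and from 2028 to 4293 for the average (7 to 8 members).

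Sign changes touched only differences that were not called. In CHF against sham with placebo, quantile normalization gave -0.072 for RT1-Bb 1371033_at and -0.050 for Cd74, weights gave -1.22 for RT1-Ba 1377334_at, and leaving out the lungs of weaker 5′ actin gave -1.57 for RT1-Ba 1377334_at, -0.058 for RT1-Bb 1371033_at and -0.15 for Cd74. For the drug in sham rats, Ciita was 0.0063 after quantile normalization, RT1-Da 0.0023 and Ctss -0.14 with weights, and RT1-DMb -0.35, Cd74 -0.068 and Ctss -0.59 without the lungs of weaker 5′ actin. Without those lungs the interaction of RT1-Ba 1377334_at was 0.52, and on average over both arms Cd74 was -0.0086 and Ciita 0.11. Quantile normalization gave -0.0058 for Cd74 on average, weights 0.018 for Ciita, and leaving out the lungs with cardiomyocyte signal 0.040 for Ciita.

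With single arrays left out, CHF against sham with placebo ranged from -1.45 to 0.87 for RT1-Ba 1377334_at, from -0.00057 to 0.031 for RT1-Bb 1371065_at, from -0.16 to 0.11 for RT1-Bb 1371033_at and from -0.088 to 0.18 for Cd74, and with ketotifen from -0.019 to 0.36 for Ciita. The drug difference in sham rats ranged from -0.27 to 0.11 for Ciita, -0.36 to 0.33 for Ctss, -0.12 to 0.077 for RT1-Da, -0.039 to 0.46 for RT1-DMb and -0.023 to 0.25 for Cd74. The interaction ranged from -0.17 to 0.62 for RT1-DMa, -0.029 to 0.24 for Cd74 and -1.94 to 0.38 for RT1-Ba 1377334_at, and the average for Ciita from -0.17 to 0.024.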
